A study of Mus musculus with 9 samples.

Results

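The nuclear-encoded subunits of oxidative phosphorylation (OXPHOS) were taken as all protein-coding genes of the count table whose symbols begin with Nduf followed by a, b, c, s or v and a digit, with Uqcr, with Atp5 or with Cox4 to Cox8 followed by a, b or c, together with Sdha to Sdhd and Cyc1. This rule found 84 genes among the 55450 gene identifiers of the table, namely 37 of complex I, 4 of complex II, 9 of complex III, 16 of complex IV and 18 of complex V. Of the 84 genes, 78 had enough counts to be among the 19357 genes tested. The respiratory proteins that the mitochondrial genome encodes were left out of the deposited table and are not analysed here. RNA sequencing was performed on EYFP+ cells sorted from the mammary glands of adult nulliparous mice, with 3 libraries in each of 3 genotypes. Control mice carried lsl-EYFP and K8CreERT2 with no floxed allele in their label. LATS1/2-KO mice carried LATS1/2f/f in addition, and LATS1/2-Sox9-KO mice carried both LATS1/2f/f and Sox9f/f in addition. Mice of every genotype, control included, received 2 mg of tamoxifen by intraperitoneal injection 5 times, and glands were taken 7 days after the last dose, so Cre activity, the EYFP reporter and tamoxifen were shared by all groups. CreERT2 was driven by the Krt8 promoter, so that recombination was directed at luminal cells, and cells were sorted on EYFP and a live dye without an epithelial surface marker. The labels do not say whether a library came from 1 mouse or several, and p-values therefore measure only the spread between these libraries, which may be technical.

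OXPHOS is carried out by enzyme complexes in the inner mitochondrial membrane. Complex I oxidizes NADH and complex II oxidizes succinate, both pass electrons through ubiquinone to complex III, cytochrome c carries them to complex IV, which reduces oxygen, and the proton gradient made on the way drives ATP synthase, complex V. All complexes except complex II hold subunits from both genomes, and most nuclear subunits are accessory proteins that surround a smaller catalytic core. Genes for these subunits are transcribed in most tissues, often from promoters bound by NRF1, ETS factors such as GABP, and YY1, with PGC-1 and estrogen-related receptor proteins raising their output in tissues of high oxidative demand. LATS1 and LATS2 are kinases of the Hippo pathway that restrain the coactivators YAP and TAZ, and Sox9 is a transcription factor of luminal progenitor cells.

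Total counts ranged from 44167762 to 61967651 per library. Lats1 stood at 5672, 5929 and 5941 normalized counts in control, at 2090, 1923 and 2336 in LATS1/2-KO and at 2058, 1844 and 1709 in LATS1/2-Sox9-KO (log2 fold change -1.47, SE 0.11, adjusted p = 7.07e-06 for LATS1/2-KO against control by the quasi-likelihood test of edgeR, adjusted after Benjamini and Hochberg over all tested genes, as for every adjusted p here). Normalized counts are the deposited counts brought to 1 common library size by TMM, edgeR's trimmed-mean scaling. Lats2 stood at 1039, 865 and 1220 in control, at 1256, 1434 and 1723 in LATS1/2-KO and at 1957, 1580 and 1240 in LATS1/2-Sox9-KO (log2 fold change 0.50, SE 0.20, adjusted p = 0.0572), and this difference passed as higher in 10 of 21 alternative settings. It rose in LATS1/2-Sox9-KO (log2 fold change 0.61, adjusted p = 0.024), a call that was lost without control replicate 1 or 2 or LATS1/2-Sox9-KO replicate 1, with 1 library left out at a time here and below. Its summed count over all exons did not fall in either genotype labelled as lacking it. The deleted exons were not counted apart. Sox9 stood at 23310, 19950 and 21530 in control, at 7205, 9506 and 12430 in LATS1/2-KO and at 8812, 6756 and 6460 in LATS1/2-Sox9-KO, below control in both floxed genotypes, and no call was made for Sox9 when the floxed genotypes were compared with each other (log2 fold change -0.40, SE 0.19, adjusted p = 0.25). The directions below compare libraries by these labels. Among 12 luminal markers the keratins Krt8 and Krt18 were present in every library, and Krt18 was the most abundant at 248400 ± 9152 (SD, n = 3) normalized counts in control.

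Across the 78 tested subunits, small changes in both directions were found in LATS1/2-KO against control. A total of 22 subunits rose and 16 fell at an adjusted p of at most 0.05, where 28.7% of all tested genes rose and 27.1% fell, and the counts are 28.2% and 20.5% of the subunits. The median log2 fold change was 0.06 over the subunits and 0.04 over all tested genes. Only 2 subunits, Ndufb6 and Cox6b2, also passed an absolute log2 fold change above 1, which 34.6% of all tested genes did. Neither did so with an offset for GC content (0.90 and -0.87), while Ndufb2 (-1.23) and Atp5s (-1.29) passed both thresholds. With 1 library left out, Ndufb6 ran from 0.94 to 1.06. Of the 78 subunits, 62 (79.5%) lay within 0.5 log2 units of control, and 33.1% of all tested genes did. Of the 70 subunits that averaged 1000 normalized counts or more, 59 (84.3%) did, beside 40% of the 8379 tested genes at that level. In LATS1/2-Sox9-KO against control 22 subunits rose and 14 fell, beside 29.3% and 28.7% of all tested genes, and 3 (Ndufb6, Uqcrq and Cox6b2) passed both thresholds beside 37.4% of all tested genes. Over the alternative settings Ndufb6 went down to 0.84 and Uqcrq to 0.94 in that comparison, and both still passed an adjusted p of 0.05. The median over the subunits in that comparison was 0.10. Both comparisons share the 3 control libraries. An offset for gene length changed the split in LATS1/2-KO to 14 higher and 23 lower with a median of -0.08, and an offset for GC content changed it to 29 higher and 18 lower. With DESeq2 it was 14 higher and 16 lower, and 14 rose without control replicate 1, control replicate 2 or LATS1/2-KO replicate 2 (with 14, 15 and 15 fallen). The median in LATS1/2-KO ran from 0.00078 without LATS1/2-KO replicate 2 to 0.12 without LATS1/2-KO replicate 1. In sorted bulk RNA, fewer cells of a type and less RNA per cell cannot be told apart.

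**Figure D1:**
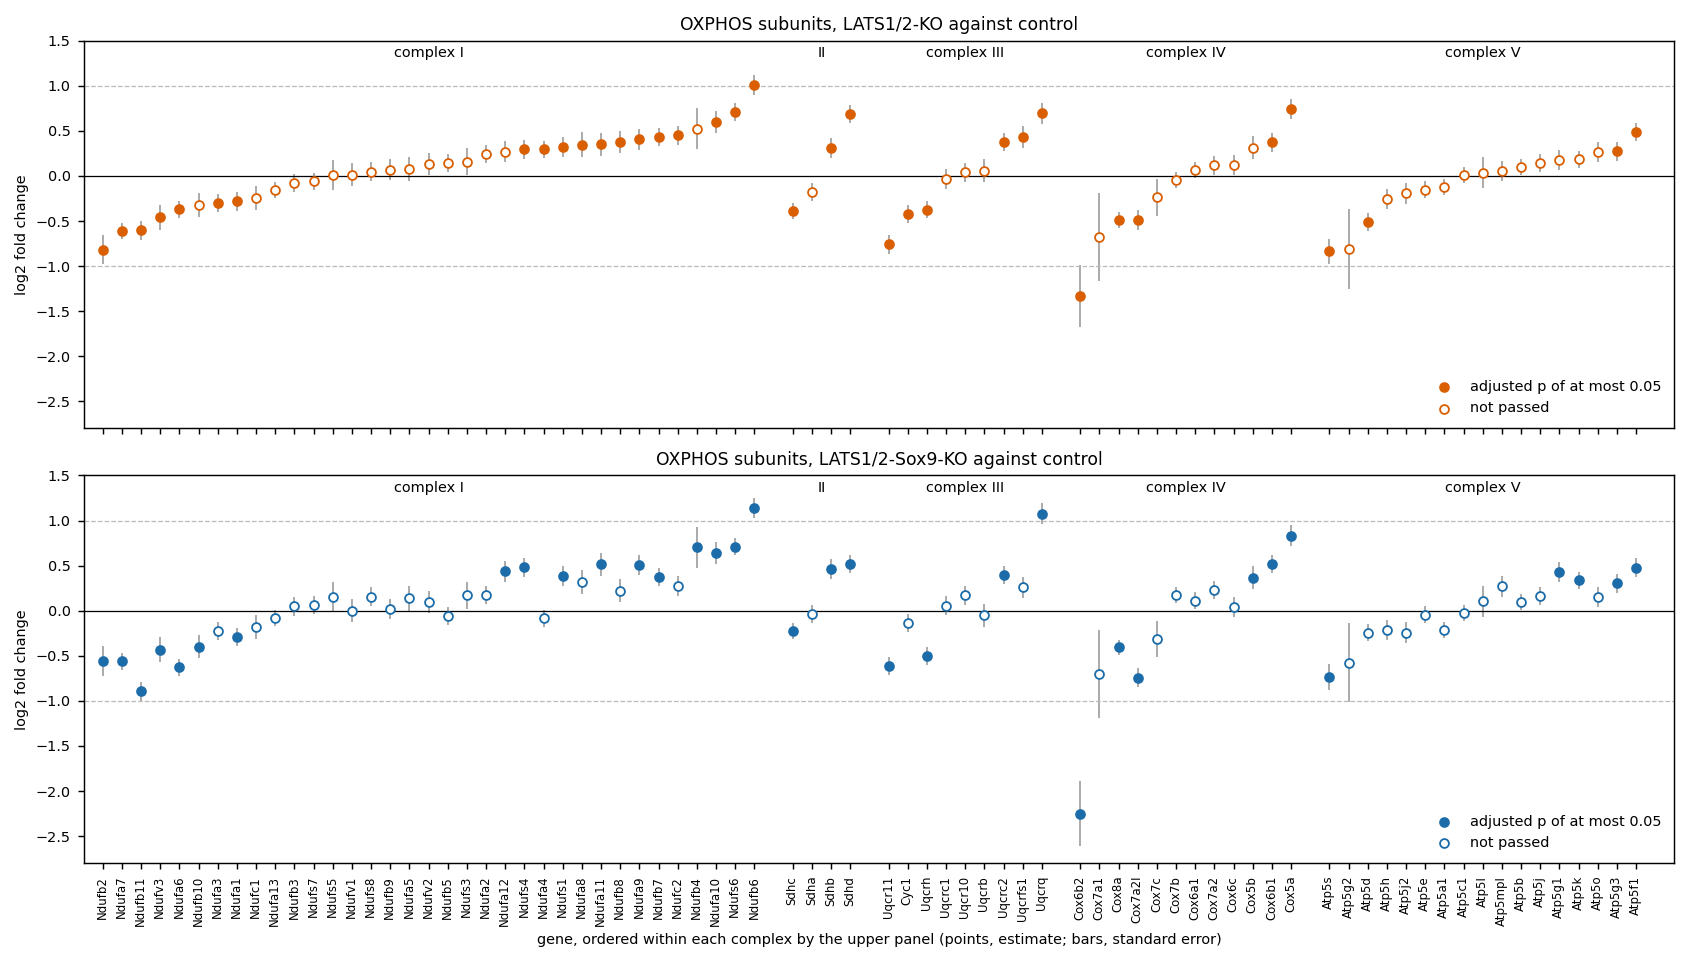
Log2 fold change (vertical axis) of 77 of the 78 tested OXPHOS subunits (horizontal axis, ordered within complex) in LATS1/2-KO (upper panel) and LATS1/2-Sox9-KO (lower panel) against control, with standard errors. Filled points passed an adjusted p of 0.05 and dashed lines mark an absolute log2 fold change of 1. Most points lie within 0.5 of 0, and Ndufb6 and Cox6b2 reach the dashed lines in both panels.

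Promoter sequences from RefSeq (GRCm38.p6) were matched for 68 of the 84 subunits, giving 73 windows of 300 bases, from 250 bases before to 50 after an annotated start. The NRF1 core GCGCANGC, on either strand, was held by 34.2% of these windows, beside 9.95% of all 32851 windows and 13.2% of those of protein-coding genes. The ETS core CCGGAAG was held by 21.9% (8.86% of all windows and 11.6% of those of protein-coding genes), and the YY1 core AAGATGGC by 13.7% (2.75% and 3.05%). GGAATG, the core bound by TEAD factors, the DNA-binding partners of YAP and TAZ, was held by 11.0% of subunit windows and 14.7% of all windows. By call in LATS1/2-KO, the NRF1 core was held by 38.9% of the 18 windows of risen subunits, by 18.8% of the 16 windows of fallen subunits and by 40.5% of the 37 windows of subunits that did not pass. In the same order the ETS core was held by 27.8%, 18.8% and 21.6%, the YY1 core by 27.8%, 6.25% and 10.8% and the TEAD core by 16.7%, 18.8% and 5.41%. A match is a description of letters and not a measured binding site. The 120 bases that end just before the start are shown for 3 subunits that rose (Ndufb6, Sdhd and Ndufs6) and 2 that fell (Uqcr11, whose call was lost with an offset for GC content, and Cox6b2). Matched cores are in capitals and positions are counted backwards from -1 at the last base before the start. Sdhd held an NRF1 core beginning at -79 and an ETS core (as its reverse complement) at -46, Ndufs6 held an NRF1 core at -14 and Uqcr11 an ETS core at -66. The stretches of Ndufb6 and Cox6b2 held none of these letters, which says nothing of the factors. The stretches lie at chr4:40279422-40279541 on the minus strand for Ndufb6, at chr9:50603850-50603969 on the minus strand for Sdhd, at chr13:73328483-73328602 on the minus strand for Ndufs6, at chr10:80406822-80406941 on the minus strand for Uqcr11 and at chr7:4753095-4753214 on the minus strand for Cox6b2.
Ndufb6: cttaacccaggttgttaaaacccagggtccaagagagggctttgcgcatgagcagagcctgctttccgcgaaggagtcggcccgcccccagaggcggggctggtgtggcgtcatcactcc
Sdhd: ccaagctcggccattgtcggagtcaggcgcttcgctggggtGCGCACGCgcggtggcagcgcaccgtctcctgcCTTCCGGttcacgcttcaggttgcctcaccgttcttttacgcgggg
Ndufs6: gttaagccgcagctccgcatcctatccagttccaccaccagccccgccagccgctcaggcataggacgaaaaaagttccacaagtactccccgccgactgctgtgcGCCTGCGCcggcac
Uqcr11: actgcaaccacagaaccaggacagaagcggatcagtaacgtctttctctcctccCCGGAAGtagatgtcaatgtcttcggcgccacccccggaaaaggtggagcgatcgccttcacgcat
Cox6b2: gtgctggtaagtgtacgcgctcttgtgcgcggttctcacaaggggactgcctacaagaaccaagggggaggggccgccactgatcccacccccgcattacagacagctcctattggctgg

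In complex I, the NADH dehydrogenase and the largest of the complexes, 13 of 36 tested subunits rose and 7 fell in LATS1/2-KO (Ndufa4, grouped here by its symbol, among the risen), or 36.1% and 19.4% beside 28.7% and 27.1% of all tested genes. The median was 0.14 and single log2 fold changes ran from -0.82 to 1.01. This median ran from 0.045 to 0.19 with 1 library left out and was 0.05 with an offset for gene length. Ndufb6 (chr4:40270591-40279421, GRCm38), an accessory subunit of the membrane arm, stood at 2172, 1895 and 2200 normalized counts in control, at 4343, 4341 and 3954 in LATS1/2-KO and at 4085, 4900 and 4788 in LATS1/2-Sox9-KO. The KO libraries did not overlap control and the subunit was higher (log2 fold change 1.01, SE 0.11, adjusted p = 5.19e-05). Smim27, an adjacent gene, shares 39.0% of the exonic bases of Ndufb6. Ndufb2 (chr6:39592574-39603382), another accessory subunit of the membrane arm, stood at 2308, 1953 and 2254 in control, at 1524, 1223 and 954 in LATS1/2-KO and at 1531, 1495 and 1401 in LATS1/2-Sox9-KO. Every KO library lay below every control library (log2 fold change -0.82, SE 0.17, adjusted p = 0.00209). Ndufs6, which binds zinc at the base of the peripheral arm, rose from 1862 ± 42 to 3046 ± 83.1 normalized counts (SD, n = 3; log2 fold change 0.71, SE 0.10, adjusted p = 1.70e-04), where a near copy, Ndufs6b, matches at 95.8% identity over 287 bases. Ndufa10, an accessory subunit of the membrane arm, rose by a log2 fold change of 0.60 (SE 0.12, adjusted p = 0.00221). Ndufs1, which carries iron-sulfur clusters, rose (0.32, adjusted p = 0.0323), and the core subunits Ndufs3, Ndufs7, Ndufs8, Ndufv1 and Ndufv2 did not pass, with log2 fold changes from -0.06 to 0.16. The fallen accessory subunits included Ndufa7 (-0.61, adjusted p = 3.63e-04), Ndufb11 (-0.60, adjusted p = 7.65e-04, with a near copy, Gm6444), Ndufv3 (-0.46, adjusted p = 0.0173) and Ndufa6 (-0.37, adjusted p = 0.00864). In LATS1/2-Sox9-KO 11 rose and 7 fell (30.6% and 19.4%, beside 29.3% and 28.7% of all tested genes), with Ndufb6 at 1.14, Ndufb11 at -0.90, Ndufa6 at -0.63 and Ndufb2 at -0.56 (log2 fold change against control, each past an adjusted p of 0.05). With an offset for GC content Ndufs1 turned to -0.02, Ndufa6 stood at -0.03 (adjusted p = 0.846) and Ndufv3 at -0.33 (adjusted p = 0.0731) in LATS1/2-KO, and none of these passed. Ndufb2 stood at -1.23 and Ndufb11 at -0.36 in LATS1/2-KO, and Ndufa6 at -0.31 and Ndufb2 at -0.94 in LATS1/2-Sox9-KO, with the same offset, and these passed. Ndufs1 passed in 11 of 21 alternative settings and its call was lost without control replicate 1, 2 or 3, LATS1/2-KO replicate 2 or LATS1/2-Sox9-KO replicate 2 or 3. In LATS1/2-Sox9-KO the call of Ndufb2 was lost without control replicate 1 or LATS1/2-Sox9-KO replicate 3 and with an offset for gene length.

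Complex II, succinate dehydrogenase, has 4 subunits, all nuclear, and its members moved in opposite directions. Sdhd (chr9:50596357-50603812), which anchors the enzyme in the membrane, stood at 3724, 3836 and 3918 normalized counts in control, at 6009, 6486 and 6038 in LATS1/2-KO and at 4936, 5463 and 5999 in LATS1/2-Sox9-KO. Both floxed genotypes lay above every control library (log2 fold change 0.69, SE 0.10, adjusted p = 2.59e-04 in LATS1/2-KO and 0.51 in LATS1/2-Sox9-KO, adjusted p = 0.00142, or 0.27 with an offset for gene length, adjusted p = 0.0264). Sdhc (chr1:171127165-171150603), the other membrane anchor, stood at 5456, 5630 and 5985 in control, at 4235, 4534 and 4229 in LATS1/2-KO and at 4727, 4913 and 4954 in LATS1/2-Sox9-KO. It fell without overlap (log2 fold change -0.39, SE 0.09, adjusted p = 0.0037), so the anchor subunits moved apart. Sdhb, the iron-sulfur subunit, stood at 4348 ± 240 in control and 5409 ± 658 in LATS1/2-KO (SD, n = 3, log2 fold change 0.32, SE 0.11, adjusted p = 0.0339). It passed in 12 of 21 alternative settings, over which the adjusted p reached 0.148. The call was lost without control replicate 1 or 2, LATS1/2-KO replicate 2 or 3 or LATS1/2-Sox9-KO replicate 2 or 3, and the log2 fold change stood at 0.21 without LATS1/2-KO replicate 2 and 0.63 with an offset for GC content. Sdha, the flavoprotein, stood at 16600 ± 733 in control and 14670 ± 552 in LATS1/2-KO and did not pass. The summed level of the complex, per kilobase of exon, was 10820 ± 406 in control, 12320 ± 530 in LATS1/2-KO and 12530 ± 812 in LATS1/2-Sox9-KO (SD, n = 3).

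In complex III, the cytochrome bc1 complex, 3 of 9 subunits rose and 3 fell in LATS1/2-KO (33.3% and 33.3%, beside 28.7% and 27.1% of all tested genes, median 0.04). This median ran from -0.0082 to 0.070 with 1 library left out and was -0.16 with an offset for gene length. Uqcrq (chr11:53427922-53430831), a small subunit that contacts cytochrome b, stood at 3506, 3290 and 3525 normalized counts in control, at 4795, 6337 and 5566 in LATS1/2-KO and at 7125, 7566 and 7066 in LATS1/2-Sox9-KO. The LATS1/2-Sox9-KO libraries were the highest, the LATS1/2-KO libraries intermediate and the control libraries the lowest, without overlap (log2 fold change 0.69, SE 0.11, adjusted p = 5.61e-04 in LATS1/2-KO and log2 fold change 1.08, SE 0.11, adjusted p = 3.05e-05 in LATS1/2-Sox9-KO). Between the floxed genotypes the difference of 0.38 did not pass (adjusted p = 0.076). Uqcr11 (chr10:80402997-80406830), a small accessory subunit, stood at 3301, 2819 and 3194 in control, at 1848, 1869 and 1795 in LATS1/2-KO and at 1930, 2044 and 2112 in LATS1/2-Sox9-KO. It fell in both genotypes without overlap (log2 fold change -0.76, SE 0.10, adjusted p = 1.86e-04 in LATS1/2-KO). Uqcrc1, a core protein, stood at 8890 ± 496 in control and 8677 ± 985 in LATS1/2-KO (SD, n = 3) and did not pass. Uqcrfs1, the Rieske iron-sulfur protein, rose by 0.43 (adjusted p = 0.0118) and Uqcrc2, a core protein that shares exonic bases with Pdzd9, by 0.38 (adjusted p = 0.00904), while Cyc1, which carries the heme of cytochrome c1, changed by -0.42 (adjusted p = 0.00541) and Uqcrh, its hinge protein, by -0.37 (adjusted p = 0.00802). With an offset for GC content, Uqcr11 stood at -0.18 in LATS1/2-KO (adjusted p = 0.261) and -0.03 in LATS1/2-Sox9-KO (adjusted p = 0.879). Cyc1 turned to 0.13 and Uqcrc2 to -0.00152 with the same offset, and none of these 3 passed. Uqcrh stood at -0.60 with an offset for GC content and -0.56 with one for gene length, and passed. Uqcrfs1 did not pass with an offset for gene length (0.25, adjusted p = 0.0856).

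In complex IV, cytochrome c oxidase, 2 of 12 tested subunits rose and 3 fell in LATS1/2-KO (16.7% and 25%, beside 28.7% and 27.1% of all tested genes, median 0.01). This median ran from -0.031 to 0.033 with 1 library left out and was -0.20 with an offset for gene length. Cox5a (chr9:57521274-57532426), a nuclear subunit that faces the matrix, stood at 4737, 4301 and 4517 normalized counts in control, at 6522, 8298 and 7889 in LATS1/2-KO and at 7478, 8465 and 8218 in LATS1/2-Sox9-KO. It rose without overlap (log2 fold change 0.74, SE 0.11, adjusted p = 3.50e-04), and 12.8% of its exonic bases are shared with another annotated gene, Gm26631. Cox6b2 (chr7:4751792-4753094), known as the testis form of a subunit at the outer face of the complex, stood at 316, 406 and 327 in control, at 196, 77.1 and 145 in LATS1/2-KO and at 85.4, 82.7 and 51.9 in LATS1/2-Sox9-KO. It was the subunit with the most negative change in both comparisons (log2 fold change -1.33, SE 0.35, adjusted p = 0.00837 in LATS1/2-KO and log2 fold change -2.25, SE 0.36, adjusted p = 4.25e-04 in LATS1/2-Sox9-KO), but in LATS1/2-KO it stood at -0.87 with an offset for GC content (adjusted p = 0.0417), behind Atp5s and Ndufb2, and its call was lost with that offset and a replicate block together (adjusted p = 0.0525). Cox8a, the most abundant complex IV subunit per kilobase (15640 ± 609 normalized counts per kilobase in control), changed by -0.49 (adjusted p = 0.001), and this turned to 0.08 with an offset for GC content and no longer passed. Cox6b1, the ubiquitous counterpart of Cox6b2, rose by 0.37 (adjusted p = 0.0101), and this was 0.15 and did not pass with an offset for gene length. With an offset for GC content Cox5a stood at 0.29 (adjusted p = 0.0488) in LATS1/2-KO, and its call was lost with that offset and a replicate block together (0.28, adjusted p = 0.0802). In LATS1/2-Sox9-KO it stood at 0.39 and passed with an offset for GC content. Cox4i1, the main form of a subunit that the symbol rule does not match, stood at 23700 ± 1418 in control and 22870 ± 110 in LATS1/2-KO (SD, n = 3) and did not pass. In LATS1/2-Sox9-KO it stood at 20020 ± 975, with a log2 fold change of -0.24 (adjusted p = 0.0407). Its direction depended on the setting, and it turned to 0.30 with an offset for GC content (adjusted p = 0.0436). The call was lost without control replicate 1 or 3, LATS1/2-KO replicate 2 or 3 or LATS1/2-Sox9-KO replicate 1, 2 or 3, and also with no filter on low counts, in a fit of the compared groups alone and with a replicate block. Cox5b, which binds zinc on the matrix side, stood at 2392 ± 22.5 in control and 2970 ± 277 in LATS1/2-KO and did not pass. Cox6a2, Cox7b2, Cox8b and Cox8c, forms known from muscle or testis, were not tested, with at most 4 counts in any library.

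In complex V, ATP synthase, 2 of 17 tested members rose, 2 fell and 13 did not pass in LATS1/2-KO (11.8% and 11.8%, beside 28.7% and 27.1% of all tested genes, median 0.04). This median ran from -0.034 to 0.10 with 1 library left out and was -0.08 with an offset for gene length. Atp5f1 (chr3:105942698-105960099), a subunit of the peripheral stalk, stood at 6332, 6458 and 6161 normalized counts in control, at 9440, 9140 and 7996 in LATS1/2-KO and at 8021, 8937 and 9441 in LATS1/2-Sox9-KO. The libraries of both floxed genotypes lay above control without overlap (log2 fold change 0.49, SE 0.10, adjusted p = 0.00261 in LATS1/2-KO). With an offset for GC content the change in LATS1/2-KO was 0.12 and did not pass (adjusted p = 0.281). Atp5s (chr12:69724950-69744660), which is named for ATP synthase and is now regarded as an assembly factor, stood at 774, 853 and 820 in control, at 480, 470 and 419 in LATS1/2-KO and at 480, 524 and 462 in LATS1/2-Sox9-KO. It fell without overlap (log2 fold change -0.84, SE 0.14, adjusted p = 7.42e-04), and with an offset for GC content it stood at -1.29 in LATS1/2-KO and -1.17 in LATS1/2-Sox9-KO and passed. Atp5b, the catalytic beta subunit and the most abundant member of complex V per kilobase, stood at 71170 ± 3179, 76120 ± 1220 and 76110 ± 3792 normalized counts in control, LATS1/2-KO and LATS1/2-Sox9-KO (SD, n = 3), and the alpha subunit Atp5a1 stood at 45910 ± 864, 42070 ± 2175 and 39500 ± 1862. Neither passed in either genotype, and nor did the gamma subunit Atp5c1, at 8411 ± 142, 8496 ± 374 and 8248 ± 513. Atp5d, the delta subunit of the rotor stalk, changed by -0.51 in LATS1/2-KO (adjusted p = 0.00133), and this turned to 0.06 and did not pass with an offset for GC content. Atp5g3, one of several genes for the c ring, stood at a log2 fold change of 0.27 (adjusted p = 0.0479). It passed in 7 of 21 alternative settings and its call was lost without control replicate 1, 2 or 3, LATS1/2-KO replicate 2 or 3 or LATS1/2-Sox9-KO replicate 2 or 3. In LATS1/2-Sox9-KO 4 rose and 1 fell (23.5% and 5.88%, beside 29.3% and 28.7% of all tested genes), among them Atp5g1 (0.43, adjusted p = 0.00882) and Atp5k (0.34, adjusted p = 0.013) on the rising side and Atp5s (-0.74, adjusted p = 0.00142) on the falling side. The call of Atp5g1 was lost with an offset for GC content (0.25, adjusted p = 0.108), and that of Atp5k with an offset for gene length (0.04, adjusted p = 0.762) and without control replicate 2, while it stood at 0.78 with an offset for GC content.

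**Figure D2:**
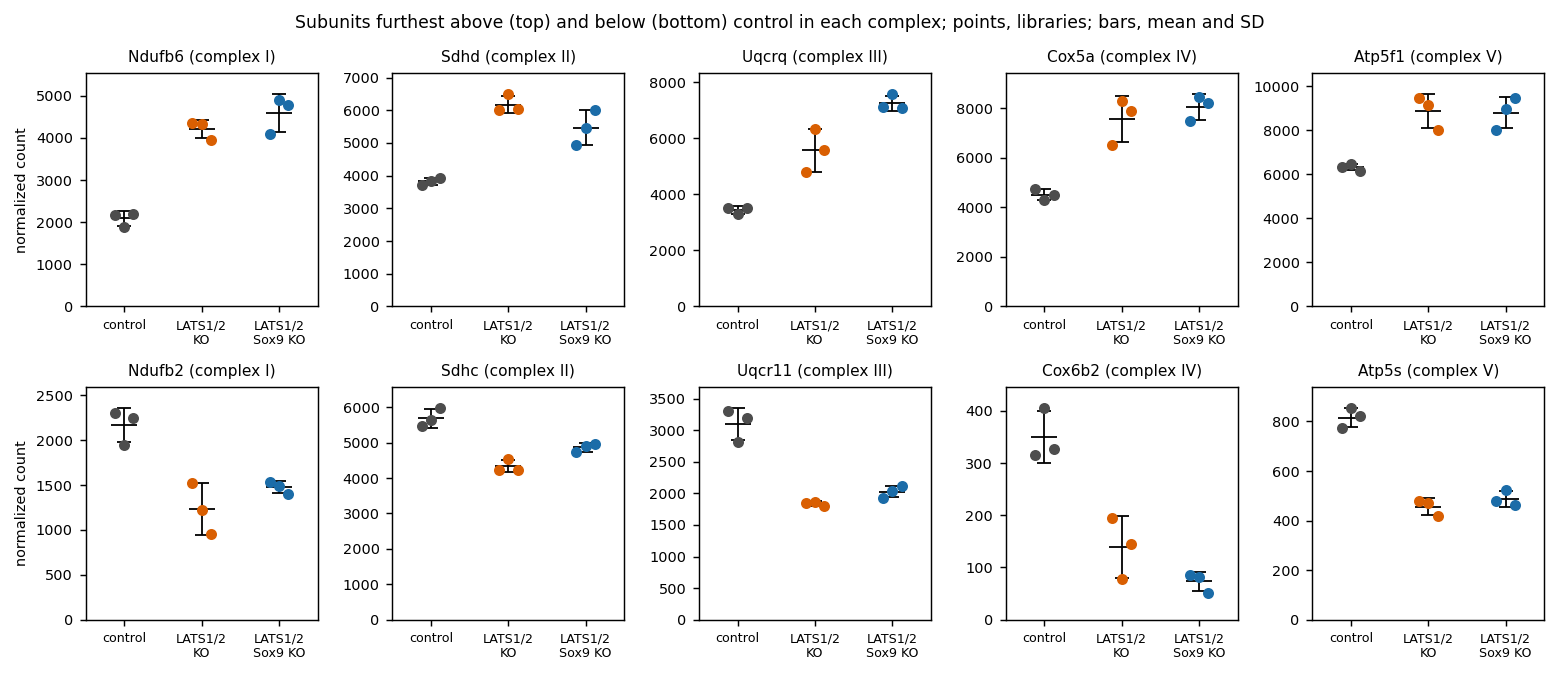
Normalized count (vertical axis) in each library of the subunit furthest above control (upper row) and furthest below control (lower row) among those that passed in LATS1/2-KO, for complexes I to V, by genotype (horizontal axis). Points are libraries and bars the mean and SD of 3, and since the panels show the members with the largest changes, the gap between control and LATS1/2-KO in each follows from that choice, and the calls of Uqcr11 and Atp5f1 were lost with an offset for GC content.

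Summed over the tested subunits of a complex, the levels changed less than those of the leading members, as follows from choosing those members for their large changes. Complex I stood at 81030 ± 3152 normalized counts per kilobase in control, 88590 ± 4612 in LATS1/2-KO and 87240 ± 5869 in LATS1/2-Sox9-KO (SD, n = 3), and the first LATS1/2-Sox9-KO library, at 80560, lay within the control range of 77430 to 83280. Complex III stood at 31500 ± 1235, 31470 ± 1394 and 32740 ± 1494, complex IV at 54690 ± 1787, 53840 ± 1691 and 56660 ± 2748 and complex V at 62370 ± 1882, 62660 ± 1606 and 63310 ± 2378, with overlapping libraries in each. Complex II, given above, was the complex in which neither floxed genotype overlapped control per kilobase, and in complex I only the LATS1/2-KO libraries lay apart from control. Without the division by length, which gives the short gene Sdhd more weight, complex II stood at 30470 ± 1243, 30590 ± 1036 and 32490 ± 2073 normalized counts, and the groups overlapped. Over all 78 subunits the sum stood at 240400 ± 8022 in control, 248900 ± 9421 in LATS1/2-KO and 252500 ± 12990 in LATS1/2-Sox9-KO, 1.04 and 1.05 times control. The subunits took from 0.743% to 0.894% of all counts in a library, with 0.782% to 0.804% in control, 0.850% to 0.894% in LATS1/2-KO and 0.743% to 0.855% in LATS1/2-Sox9-KO.

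**Figure D3:**
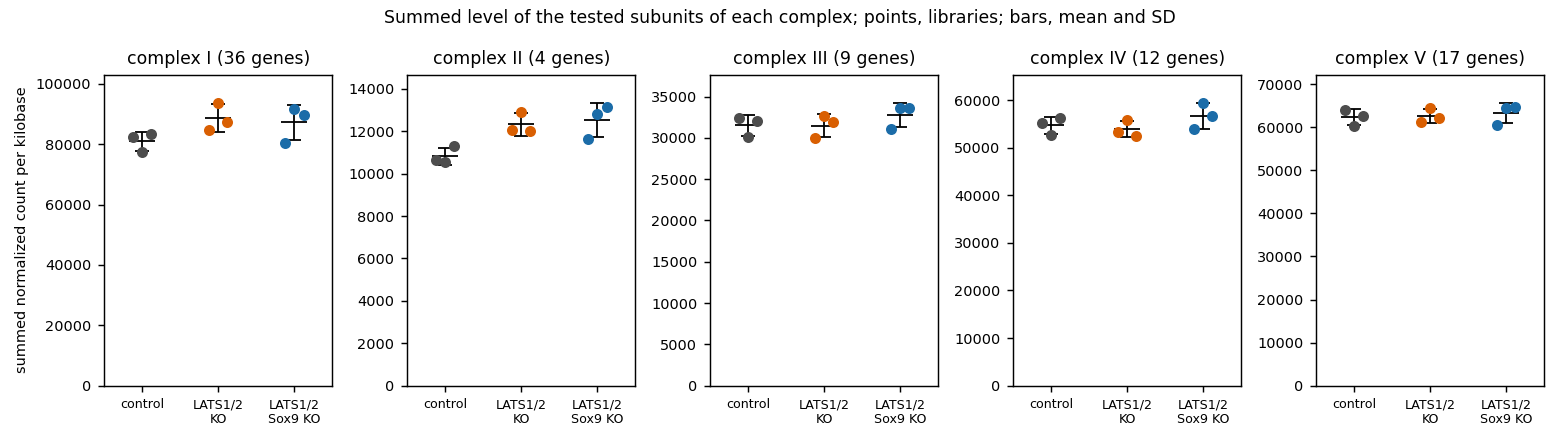
Summed normalized count per kilobase (vertical axis, from 0) of the tested subunits of each complex in each library, by genotype (horizontal axis). Points are libraries and bars the mean and SD of 3. Complex II shows no overlap between control and either floxed genotype, and the other 4 complexes overlap control in at least 1 of them.

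Several complex IV and V subunits are made by more than 1 gene, so shares of each family were computed per kilobase of exon. In the Cox7a family, Cox7a2l, which is known as a factor of respiratory supercomplexes, made up 52.1% ± 1.13 of the family in control, 42% ± 0.473 in LATS1/2-KO and 35.8% ± 1.46 in LATS1/2-Sox9-KO (SD, n = 3). Cox7a2l itself stood at 7291, 6901 and 6991 normalized counts in control, at 4942, 5444 and 4736 in LATS1/2-KO and at 3688, 4527 and 4455 in LATS1/2-Sox9-KO, without overlap between control and either floxed genotype (log2 fold change -0.49, SE 0.11, adjusted p = 0.00356 in LATS1/2-KO and log2 fold change -0.74, SE 0.11, adjusted p = 2.47e-04 in LATS1/2-Sox9-KO). Cox7a2, the widely expressed form, made up 46.8% ± 1.53 in control, 57.3% ± 0.508 in LATS1/2-KO and 63.4% ± 1.48 in LATS1/2-Sox9-KO, and its own level did not pass in either genotype. Cox7a1, the muscle form, stayed at or under 1.05% of the family on average in each genotype. In the Cox6b family, Cox6b2 made up 3.41% ± 0.623 in control, 1.06% ± 0.437 in LATS1/2-KO and 0.511% ± 0.134 in LATS1/2-Sox9-KO, with Cox6b1 making up the rest. The c-ring genes kept their order, with Atp5g3 at 95.6% ± 0.305 in control, 96.2% ± 0.00926 in LATS1/2-KO and 95.6% ± 0.387 in LATS1/2-Sox9-KO. Ndufa4l2, a hypoxia-induced relative of Ndufa4, had at most 5 counts in any library. Cox7a2l and Atp5g1 have near copies elsewhere in the annotation (at least 95% identity over at least 200 bases), which uniquely aligned reads can undercount.

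**Figure D4:**
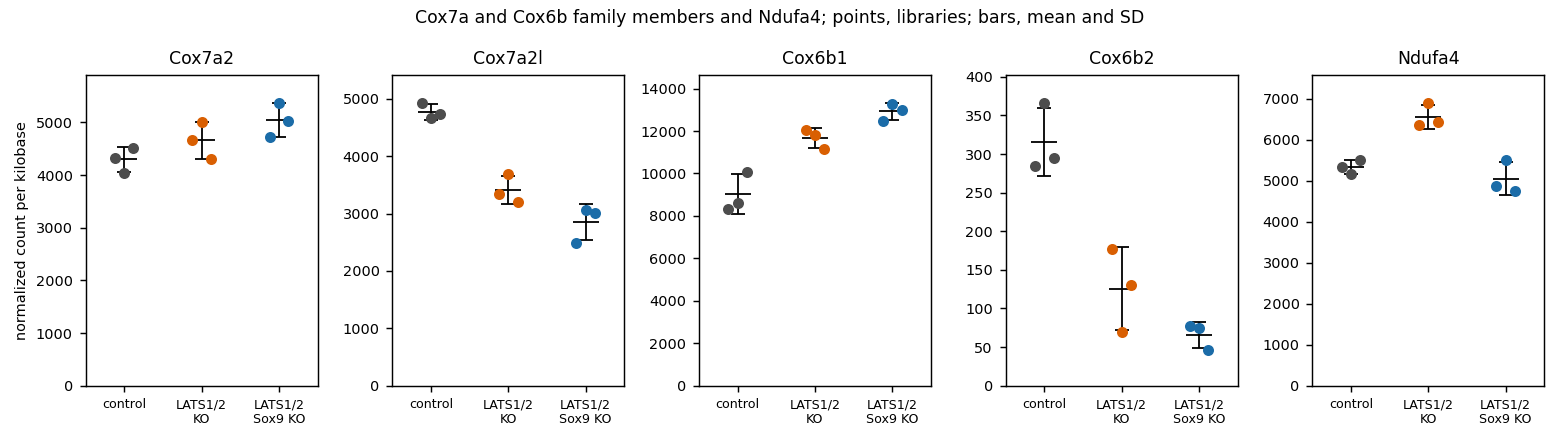
Normalized count per kilobase (vertical axis, from 0) of Cox7a2, Cox7a2l, Cox6b1, Cox6b2 and Ndufa4 in each library, by genotype (horizontal axis). Points are libraries and bars the mean and SD of 3, and Cox7a2l and Cox6b2 lie below control in both floxed genotypes while Ndufa4 lies above control in LATS1/2-KO alone.

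Compared directly, the libraries of the 2 floxed genotypes differed little in the subunits. By edgeR's quasi-likelihood test 0 subunits rose and 1 fell, beside 3.12% and 3.33% of all tested genes, and DESeq2 gave 1 higher and 1 lower. None passed an absolute log2 fold change above 1 as well, beside 3.71% of all tested genes. The median was 0.05 and 77 of 78 lay within 0.5 log2 units of 0, as did 66.8% of all tested genes. All 70 subunits that averaged 1000 normalized counts or more did, beside 83.8% of all tested genes at that level. Among the 78, Cox6b2 lay outside at -0.92 (adjusted p = 0.153). The subunit that fell was Ndufa4, which was named for complex I and is now placed in complex IV. Ndufa4 (chr6:11900292-11907497) stood at 7374, 7145 and 7593 normalized counts in control, at 8783, 9529 and 8883 in LATS1/2-KO and at 6733, 7605 and 6568 in LATS1/2-Sox9-KO. The LATS1/2-KO libraries were above all others, and the LATS1/2-Sox9-KO libraries overlapped control (log2 fold change -0.38, SE 0.09, adjusted p = 0.0443 between the floxed genotypes, and 0.30 in LATS1/2-KO and -0.08 in LATS1/2-Sox9-KO against control, adjusted p = 0.0215 and 0.488). The call between the floxed genotypes was lost in 13 of 21 alternative settings, over which the adjusted p ran from 0.0170 to 0.180. It was kept without LATS1/2-KO replicate 1 and lost without any 1 of the other libraries. In LATS1/2-KO against control Ndufa4 passed in 13 of 21 alternative settings, its call was lost without control replicate 1 or 2 or LATS1/2-KO replicate 2, and an offset for GC content turned it to -0.16.

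Other mitochondrial genes were read beside the subunits from lists of known function. Genes for proteins that build the complexes are given first, and of all tested genes 28.7% rose and 27.1% fell in LATS1/2-KO. Of 17 complex I assembly factors 9 rose and 2 fell in LATS1/2-KO (52.9% and 11.8%, median 0.38), led by Ndufaf4 (1.45, adjusted p = 1.79e-04) and Tmem126b (1.30, adjusted p = 9.82e-04). Of 24 complex IV assembly factors 8 rose and 1 fell (33.3% and 4.17%, median 0.22), with Sco2 and Cox11, which serve copper delivery, at 1.22 and 0.87 (adjusted p = 0.00504 and 7.22e-04). With 1 library left out, 4 to 8 of these factors rose and 0 to 3 fell. In LATS1/2-Sox9-KO 14 of the 24 rose and 0 fell (58.3% and 0%, beside 29.3% and 28.7% of all tested genes, median 0.48). With 1 library left out, 9 to 15 rose there. Between the floxed genotypes 2 were higher (8.33%, beside 3.12% of all tested genes), or 0 to 4 with 1 library left out. Of 4 complex II factors 2 rose and 0 fell in LATS1/2-KO, with Sdhaf1, which helps insert iron-sulfur clusters, at 1.40 (adjusted p = 9.60e-05). Of 4 complex V factors 1, Tmem70, rose (0.80, adjusted p = 1.19e-04). Of 6 complex III factors 0 rose and 2 passed as lower, namely Bcs1l, which inserts the Rieske protein (-0.94, adjusted p = 0.0219), and Lyrm7, a chaperone of the same protein (-0.75, adjusted p = 0.0334). In LATS1/2-Sox9-KO neither passed (-0.63 and 0.23), and 2 of the 6 rose and 1 fell (33.3% and 16.7%, beside 29.3% and 28.7% of all tested genes). These 3 are named after their values were seen. They are Uqcc1 (0.33, adjusted p = 0.016), Uqcc2 (0.68, adjusted p = 0.00155) and Uqcc3 (-0.44, adjusted p = 0.0145). An offset for GC content turned Uqcc1 to -0.03 and left Uqcc3 at -0.20, and neither passed, while one for gene length gave 0.52, 0.39 and -0.74, all passing. The call of Uqcc1 was lost without control replicate 2, and that of Uqcc3 without LATS1/2-Sox9-KO replicate 1 or 2. Between the floxed genotypes 1 of the 6 (16.7%, beside 3.12% of all tested genes), Uqcc2, was higher (0.59, adjusted p = 0.0325). Its call was lost without control replicate 1, LATS1/2-KO replicate 2 or 3 or LATS1/2-Sox9-KO replicate 1, 2 or 3. Bcs1l stood at 603, 267 and 275 normalized counts in LATS1/2-KO, where the first library was close to the lowest control library at 626. Without LATS1/2-KO replicate 1 its log2 fold change was -1.42. The call of Bcs1l was lost without control replicate 2 or 3 or LATS1/2-KO replicate 2 or 3, and that of Lyrm7 without control replicate 1 or 2, LATS1/2-KO replicate 2 or 3 or LATS1/2-Sox9-KO replicate 3. Of 12 supercomplex and cristae factors 7 (58.3%) rose and 0 fell, with Immt, a core protein of cristae junctions, at 0.95 and Apool at 1.14 (adjusted p = 2.96e-05 and 7.21e-05). With an offset for GC content Tmem126b, Lyrm7, Tmem70, Immt and Apool stood at 0.84, -1.14, 0.41, 0.50 and 0.68 and passed.

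Of 78 mitochondrial ribosomal protein genes, which translate the mitochondrially encoded subunits, 53 rose and 3 fell in LATS1/2-KO (67.9% and 3.85%, beside 28.7% and 27.1% of all tested genes, median 0.61). A total of 63 rose and 1 fell in LATS1/2-Sox9-KO (80.8% and 1.28%, beside 29.3% and 28.7%, median 0.83). Mrpl22 and Mrps22 had the largest changes of the list in LATS1/2-KO, 1.39 and 1.38 (adjusted p = 1.66e-04 and 1.51e-05). Of 23 protein import genes, which bring the nuclear subunits into the organelle, 15 rose and 1 fell in LATS1/2-KO (65.2% and 4.35%, median 0.73), led by the small chaperones Timm8a1 (1.90, adjusted p = 1.46e-04) and Timm10 (1.77, adjusted p = 7.30e-06). The list of cytosolic ribosomal protein genes, taken by symbol, had a median of -0.01, with 16 of 96 higher and 11 lower (16.7% and 11.5%, both under the share of all tested genes). Without control replicate 3, 22 of them fell. The list members with the largest changes were the kinase genes Rps6ka2 (1.69) and Rps6ka1 (-1.54, or -1.02 with an offset for GC content), which match by symbol without being ribosomal proteins. The counts of this list include them and any other such matches. The differences between these lists and the OXPHOS subunits were not tested.

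Of 19 genes of the tricarboxylic acid cycle, which feeds electrons to complexes I and II, 8 rose and 3 fell in LATS1/2-KO (42.1% and 15.8%, beside 28.7% and 27.1% of all tested genes, median 0.22). The largest changes were falls of Pcx, pyruvate carboxylase (-4.47, adjusted p = 1.52e-06), and Ogdh, a subunit of oxoglutarate dehydrogenase (-1.49, adjusted p = 3.24e-06). Of 20 fatty acid beta-oxidation genes 4 rose and 5 fell (20% and 25%, both under those shares, median -0.06). Of 11 carriers and channels 5 rose and 2 fell (45.5% and 18.2%), with the ATP carrier Slc25a24 at 2.00 and the outer membrane channel Vdac3 at 1.31 (adjusted p = 3.70e-05 and 8.48e-06). Vdac3 stood at 0.87 with an offset for GC content and passed. Of 16 regulators of mitochondrial biogenesis 3 rose and 7 fell (18.8% and 43.8%, median -0.34). Esrrg, an estrogen-related receptor, stood at 730, 646 and 732 normalized counts in control, at 19.1, 5.08 and 20.1 in LATS1/2-KO and at 7.43, 12 and 12.8 in LATS1/2-Sox9-KO, and every floxed library was below every control library (log2 fold change -5.58, SE 0.44, adjusted p = 7.64e-06). Esrrb also fell (-6.48, adjusted p = 8.09e-04, and from -9.54 to -5.92 with 1 library left out), as did Ppargc1b, which encodes PGC-1beta (-1.53, adjusted p = 0.0057), while Esrra at 1901 ± 97.5 in control and 1512 ± 339 in LATS1/2-KO and Ppargc1a at 59.2 ± 14.9 and 57.2 ± 39.9 (normalized counts, SD, n = 3) did not pass. Nrf1 (0.38, adjusted p = 0.0172) and Gabpa (0.94, adjusted p = 1.40e-04) were among the regulators that rose. Outside that list Tfam, the packaging and transcription factor of mitochondrial DNA, rose as well (0.72, adjusted p = 9.53e-04). With an offset for GC content Nrf1 stood at 0.05 and did not pass (adjusted p = 0.762), while Ppargc1b at -1.001, Gabpa at 0.48 and Tfam at 0.37 passed. The call of Nrf1 was also lost without control replicate 2 or LATS1/2-KO replicate 2. Of 13 genes for maintenance and transcription of mitochondrial DNA, Tfam among them, 5 rose and 4 fell (38.5% and 30.8%), with Tefm at 1.31 (adjusted p = 9.21e-04). Of 13 hypoxia response genes 3 rose and 8 fell (23.1% and 61.5%), with Vegfa at -2.63 and Adm at 2.84 (adjusted p = 4.37e-05 and 1.74e-04).

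**Figure D5:**
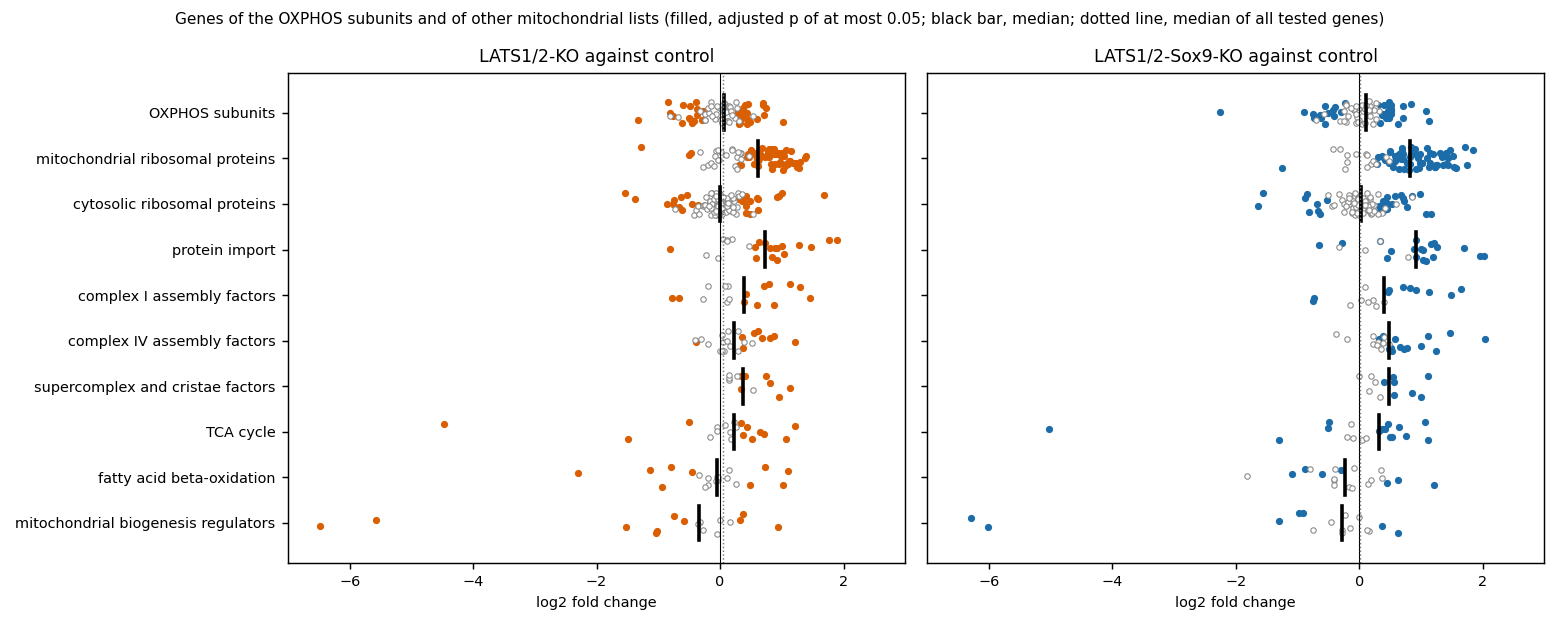
Log2 fold change (horizontal axis) of single genes in the OXPHOS subunits and 9 other lists (vertical axis) in LATS1/2-KO (left) and LATS1/2-Sox9-KO (right) against control. Filled points passed an adjusted p of 0.05, black bars are list medians and the dotted line is the median of all tested genes. The OXPHOS subunits gather near 0, and the mitochondrial ribosomal and protein import lists have medians of 0.61 and 0.73 in LATS1/2-KO.

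Other features of the libraries moved with genotype beside the subunits. All 12 proliferation genes rose in LATS1/2-KO (beside 28.7% of all tested genes, median 2.05), with Ccnb1, cyclin B1, from 35.6 ± 26.5 to 2060 ± 469 normalized counts (SD, n = 3). Of all tested genes 28.7% rose and 27.1% fell in LATS1/2-KO, and 29.3% rose and 28.7% fell in LATS1/2-Sox9-KO. The counts of the marker lists below stand beside these shares. Of 12 luminal markers 2 rose and 8 fell in LATS1/2-KO, and 2 rose and 9 fell in LATS1/2-Sox9-KO (median -2.01). Their summed level, led by Krt18, was 1027000 ± 70680 in control, 884300 ± 18390 in LATS1/2-KO and 1372000 ± 96200 in LATS1/2-Sox9-KO normalized counts, so in LATS1/2-Sox9-KO the sum lay above control while most of the markers lay below it. Pgr, a marker of hormone-sensing luminal cells, fell from 22690 ± 6622 to 379 ± 269. Of 9 basal and myoepithelial markers 4 rose and 3 fell, and the sum of 5726 ± 700 in control, 193000 ± 62530 in LATS1/2-KO and 243200 ± 116800 in LATS1/2-Sox9-KO was carried by Krt14, its most abundant gene, while Trp63 stood at 1553 ± 1022 in control and 54.9 ± 14.8 in LATS1/2-KO. For adipocytes 6 of 11 tested markers rose and 1 fell, and the sum of 12 markers, led by Fabp4, was 680 ± 86.5 in control, 3996 ± 3276 in LATS1/2-KO and 1437 ± 1090 in LATS1/2-Sox9-KO, with Cfd and Lep at 0 counts in every control library. By library this sum was 741, 7293 and 3955 in LATS1/2-KO and 239, 2370 and 1704 in LATS1/2-Sox9-KO. Within each genotype the OXPHOS sum per kilobase ranked the libraries in the same order, which was not tested. Skeletal muscle markers, of which 4 of 11 were tested and 2 of those rose, summed to 148 ± 39.6 in control, 737 ± 28.7 in LATS1/2-KO and 876 ± 20.2 in LATS1/2-Sox9-KO, led by Tnni2. Of 7 tested leukocyte markers 1, Csf1r, rose (158 ± 43 in control and 2310 ± 529 in LATS1/2-KO), Cd3e had no count in any library, and the sum of 10 was 921 ± 214 in control, 3216 ± 1156 in LATS1/2-KO and 4045 ± 684 in LATS1/2-Sox9-KO. Fibroblast markers (4 of 8 higher, 1 lower, led by Dcn) summed to 5460 ± 3690 in control, 5339 ± 4191 in LATS1/2-KO and 4852 ± 2404 in LATS1/2-Sox9-KO, endothelial markers (1 of 8 higher, 1 lower, led by Vwf) to 5863 ± 637 in control, 1032 ± 201 in LATS1/2-KO and 837 ± 388 in LATS1/2-Sox9-KO, and erythroid markers (1 of 2 tested lower, led by Alas2, with Hba-a2 and Hbb-bt at 0 in all libraries) to 135 ± 13.9 in control, 36.9 ± 44.1 in LATS1/2-KO and 1.23 ± 1.42 in LATS1/2-Sox9-KO. The part of cell type makeup and of proliferation in the subunit changes was not tested.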

How the data were processed

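Poly(A) RNA of sorted EYFP+ cells was sequenced with the TruSeq RNA v2 kit, which does not mark strand. Per the labels and the study's methods, the authors aligned reads to mm10 with STAR 2.6.0c and made the deposited counts with featureCounts of Subread 1.6.2, as whole numbers of read pairs in proper orientation that aligned once, for the genes of Ensembl 100. Mitochondrial genes had been left out, and near copies may lose reads under unique alignment. Genes were named from GENCODE M21 (GRCm38), which matched 55190 of 55450 identifiers. Low genes were removed with filterByExpr of edgeR 4.0.16 (R 4.3.3), TMM factors were computed, and all 9 libraries entered 1 quasi-likelihood fit with a mean for each of 3 groups, with Benjamini-Hochberg adjustment over 19357 genes and a threshold of 0.05. DESeq2 1.42.0, other scalings and filters, GC and length offsets, a replicate block, glmTreat and leaving out each library were the alternatives. Levels between genes were compared per kilobase of union exonic length. Near copies were sought with blastn 2.17.0. The fit was tested on simulated data for LATS1/2-KO against control. There 68 genes were set to differ 1.5-fold, 66 genes 2-fold and 66 genes 4-fold, and 19157 were left unchanged. In that order edgeR recovered 5.88%, 51.5% and 92.4%, and called 7 of the unchanged genes. DESeq2 recovered 29.4%, 83.3% and 97.0%, and called 62. In the deposited data 5550 genes passed as higher and 5238 as lower in the same comparison. Recovery with so many genes differing was not tested, so these rates do not give the share of subunit changes missed. Named genes were the subunits with the largest change in each direction among those that passed in each complex, with the complex cores and paralogs and the leading genes of each list. The members and lists were chosen with earlier results of these data known. The values of 1 tested subunit are not reported here, though it is counted.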

Additional observations from a re-analysis of the deposited data

How the results depend on the processing

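Counts of risen and fallen subunits lay within 1.5 times those given above except as follows. For LATS1/2-KO against control 14 subunits rose with DESeq2, with gene length offsets and, an alternative chosen after seeing the data, without the 31 subunits that have a near copy or share over 5% of their exons, and 10 rose and 10 fell against a fold change of 1.2 (glmTreat). For LATS1/2-Sox9-KO against control 14 rose with glmTreat and 10 without those 31 subunits. Of the 47 subunits left, 14 rose and 13 fell in LATS1/2-KO (29.8% and 27.7%, median 0.014). In LATS1/2-Sox9-KO 10 of the 47 rose and 11 fell (21.3% and 23.4%, median 0.056). Between the floxed genotypes 1 rose with DESeq2, and 0 fell without a filter on low counts, in a fit of the compared groups alone, with GC content offsets, with the replicate block, with both, and with glmTreat. With total counts alone, which moved the median of all tested genes to 0.105 (LATS1/2-KO against control) and -0.122 (between the floxed genotypes), the subunit medians were 0.129 (all), 0.0759 (complex IV) and 0.0977 (complex V) for LATS1/2-KO, and -0.0577 (all), -0.0631, 0.0384, -0.0150, -0.0560 and -0.0693 (complexes I to V) between the floxed genotypes. With GC content offsets the medians of complexes II and III were 0.176 and 0.129 in LATS1/2-KO, and those of complexes III and V were 0.201 and 0.152 in LATS1/2-Sox9-KO. With gene length offsets the medians were -0.0819 (all), 0.0502 (I), -0.163 (III), -0.199 (IV) and -0.0820 (V) in LATS1/2-KO and -0.0611, -0.0523, -0.122, -0.129 and 0.0247 in LATS1/2-Sox9-KO, and 37.8% and 44.4% of calls were higher, beside 57.9% and 61.1%. GC content offsets turned Ndufa4 to -0.158, Cox8a to 0.0813, Ndufs1 to -0.0248, Ndufs4 to -0.131, Uqcrc2 to -0.00152, Cyc1 to 0.129 and Atp5d to 0.0574 in LATS1/2-KO and Cox4i1 to 0.303 and Uqcc1 to -0.0299 in LATS1/2-Sox9-KO. The cause was not tested for any of these.

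Equal replicate numbers did not pair the libraries across all 3 genotypes (correlations of deviations from -0.115 to 0.288 over 9 pairs, 2 of them over 0.1, and 4 of 9 libraries correlated best with their own number). Both pairs over 0.1 joined the floxed genotypes, replicates 2 at 0.288 and replicates 1 at 0.126, while replicates 3 stood at -0.075. Whether libraries of the floxed genotypes were paired cannot be told from these values. The replicate block gave 20 higher and 15 lower in LATS1/2-KO, 21 and 12 in LATS1/2-Sox9-KO, and 0 and 0 between the floxed genotypes. The block with GC content offsets gave medians of 0.172 and 0.128 (II and III) in LATS1/2-KO and 0.198 and 0.152 (III and V) in LATS1/2-Sox9-KO, and turned Ndufa4 to -0.158, Cox8a to 0.0753, Ndufs1 to -0.0268, Ndufs4 to -0.129, Uqcrc2 to -0.00250, Cyc1 to 0.128, Atp5d to 0.0563, Cox4i1 to 0.301 and Uqcc1 to -0.0343. Leaving out each library in turn gave 14 to 26 risen and 14 to 17 fallen subunits in LATS1/2-KO (14 risen without control replicate 1, without control replicate 2 or without LATS1/2-KO replicate 2), 18 to 28 and 9 to 15 in LATS1/2-Sox9-KO (9 fallen without control replicate 1), and 0 to 1 and 0 to 1 between the floxed genotypes, where the fall of Ndufa4 was kept without LATS1/2-KO replicate 1 alone. In LATS1/2-KO 22 genes of the cytosolic ribosomal protein list fell without control replicate 3, and 5, 4 and 5 complex IV assembly factors rose without control replicate 1, control replicate 2 and LATS1/2-KO replicate 2. Leaving out libraries gave medians from 0.00078 to 0.12 (all), 0.0447 to 0.191 (I), 0.00976 to 0.0973 (II), -0.00817 to 0.0699 (III), -0.0313 to 0.0326 (IV) and -0.0339 to 0.101 (V) in LATS1/2-KO, from 0.0603 to 0.168 (all), 0.0652 to 0.20 (I), 0.18 to 0.274 (II), 0.0371 to 0.11 (III), 0.0232 to 0.134 (IV) and 0.0275 to 0.156 (V) in LATS1/2-Sox9-KO, and from 0.0146 to 0.123 (all), -0.014 to 0.12 (I), 0.112 to 0.202 (II), 0.0199 to 0.127 (III), -0.00302 to 0.139 (IV) and 0.0294 to 0.125 (V) between the floxed genotypes. Of single named genes under the alternatives other than glmTreat, 1771 values kept direction and side of the threshold, 129 lost the call, 12 gained it and 18 turned. Calls lost with glmTreat are not among these values. With 3 libraries a group, a subunit that did not pass is not shown to be unchanged.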
